A study of Caenorhabditis elegans with 22 samples.

Results

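Rotenone was compared with its solvent in old adult Caenorhabditis elegans, 20 days after L4, the last larval stage. The comparison used 4 of the 22 libraries of the series, 2 from worms kept on agar plates with 100 nM rotenone and 2 from worms kept on plates with the solvent DMSO alone. All 45461 genes of the count table belong to it, and 16822 of them had enough counts to be tested. The other 18 libraries, 3 per treatment at days 1, 5 and 10, came from the same 2 treatments and entered the same model, so that the spread between libraries was estimated over all 8 groups. RNA came from whole animals, and the strain is not given in the sources used here. The labels do not say that replicates came from separate cultures, so p-values measure the spread between these libraries, which may be technical.

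Rotenone blocks complex I of the mitochondrial respiratory chain, which passes electrons from NADH to ubiquinone, and it is used in worms and rodents as a toxicant model of dopamine neuron loss. The worm's outer surface is a cuticle of small collagens secreted by the hypodermis. Most collagen genes are switched on in waves around each larval moult and few are made in the adult. Some of the Dumpy (dpy), Roller (rol) and Squat (sqt) genes, which are named for the altered body shape or movement of their mutants, encode collagens. Delta-9 desaturases introduce the first double bond into saturated fatty acids and are made mainly in the intestine and the hypodermis.

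Total counts at day 20 were 50998167 and 25769159 in DMSO replicates 1 and 2, and 65828660 and 33083098 in rotenone replicates 1 and 2. Ribosomal RNA genes took 1.27% to 1.97% of the counts in these 4 libraries. Marker genes of each of 8 tissue lists were detected in all 4 libraries. Summed levels, in CPM (counts scaled to 1e6 counts of tested genes, with TMM normalisation), ran over the 4 libraries from 3314 to 3650 for muscle genes, from 707.2 to 768.3 for neuron markers, from 218.7 to 230.7 for sperm genes and from 863 to 886.7 for early embryo genes. Both rotenone libraries lay above both DMSO libraries for muscle and sperm genes, and the treatments overlapped for neuron and embryo genes. The sum over all tested genes in these units is fixed by each library's TMM factor, 1.169 and 1.127 in DMSO and 1.079 and 1.085 in rotenone. It was therefore also higher in both rotenone libraries, at 927100 and 921400 CPM against 855600 and 887700 CPM in DMSO. This is a result of the scaling and not a measured difference. List sums carry the same scaling, so the muscle and sperm sums do not set these tissues apart. A transcript that differs in whole animals can differ in RNA per cell or in the number of cells, and these cannot be told apart here.

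At day 20, 11 genes passed an adjusted p of 0.05 in edgeR's quasi-likelihood test with Benjamini-Hochberg adjustment over all tested genes. Higher in rotenone were 10 genes, 0.0594% of those tested, and lower was 1 gene, 0.00594%. The 10 higher genes were the cuticle collagens dpy-4, dpy-5, dpy-13, col-17, col-73 and col-125, the delta-9 desaturases fat-5 and fat-6, the cytochrome P450 gene cyp-35C1 and Y47D7A.13, a protein-coding gene of unknown role. The lower gene was another collagen, col-81. At an unadjusted p under 0.05 the counts were 426 higher and 373 lower, together 799 of 16822 tested genes. This is below the share of 0.05 that such a threshold passes when nothing differs. Unadjusted counts in the gene lists below are descriptions only. The median log2 change over all tested genes was 0.02.

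**Figure D1:**
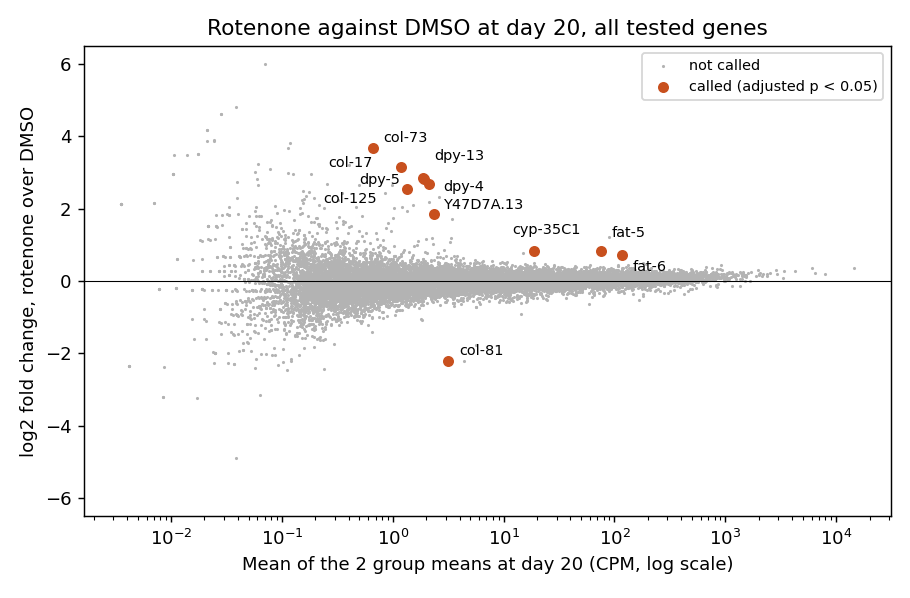
Log2 fold change of rotenone over DMSO at day 20 (vertical axis) against the mean of the group means in CPM (horizontal axis, log scale), 1 point per tested gene with a count in these 4 libraries. The 11 genes past an adjusted p of 0.05 are named: the 6 collagens with positive changes lie between 2.55 and 3.69 at low levels, the desaturases and cyp-35C1 below 1 at higher levels, and col-81 at -2.20.

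The number of calls depended on single libraries. Without DMSO replicate 1, edgeR called 0 genes, with 467 at an unadjusted p under 0.05, and without DMSO replicate 2 it called 83 genes. Without rotenone replicate 1 or rotenone replicate 2 it called 4 genes. A fit of only the 4 day 20 libraries also called 4, of which dpy-13, col-125 and Y47D7A.13 were among the 11. In that fit the adjusted p of the other 8 ran from 0.0518 for dpy-4 to 0.97 for col-81, with 0.0553 for col-73, 0.102 for fat-6 and 0.115 for fat-5. DESeq2 on all libraries called 37 genes, 30 higher and 7 lower, among them the 11. Besides collagens, desaturases and cyp-35C1, the only members of the gene lists described below that it called were the cuticlin cut-2, the acid phosphatase pho-1 and the protease asp-3. The direction of each of the 11 was the same in every alternative in which it was tested, and fat-6 and col-73 passed in 12 of 14 alternatives, the others in 8 to 12.

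Cuticle collagens made up 7 of the 11 called genes and 156 of the 16822 tested genes. The body-shape collagens dpy-4, dpy-5 and dpy-13 were 6.42-fold, 7.13-fold and 7.17-fold higher in rotenone. For dpy-13 (chromosome IV, 4235617 to 4236710) the DMSO libraries held 0.520 and 0.379 CPM and the rotenone libraries 3.89 and 2.76 CPM, a log2 change of 2.84 ± 0.45 (SE, n = 2 per group; edgeR adjusted p = 0.0178). Both rotenone libraries lay above both DMSO libraries by a wide margin. The call was lost without DMSO replicate 1 (adjusted p = 0.74) or rotenone replicate 1 (adjusted p = 0.194).

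For dpy-5 (I, 5432197 to 5433051) the levels were 0.638 and 0.207 CPM in DMSO and 3.56 and 3.26 CPM in rotenone, a log2 change of 2.83 ± 0.46 (SE; edgeR adjusted p = 0.0178). For dpy-4 (IV, 14985543 to 14986784) they were 0.722 and 0.345 CPM in DMSO and 4.21 and 3.18 CPM in rotenone, a log2 change of 2.68 ± 0.43 (SE; edgeR adjusted p = 0.0178). In DMSO, replicate 1 held the higher level of each of the 3 dpy genes, and in rotenone replicate 1 did so too. These levels rest on few reads in DMSO: dpy-5 had 38 and 6 counts there and 253 and 117 in rotenone. Without DMSO replicate 1, rotenone replicate 1 or rotenone replicate 2 the adjusted p of dpy-5 was 0.51, 0.135 and 0.0695, and that of dpy-4 was 0.51, 0.194 and 0.0488.

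The collagens col-17 and col-73 lie 4523 bases apart on chromosome II (4866723 to 4867574 and 4872098 to 4873129) and had the largest changes among the called genes. Between them lies the collagen col-20 (4869670 to 4870791), which was not called and had a log2 change of -0.40. It held 13.3 and 11.65 CPM in DMSO and 6.62 and 12.56 CPM in rotenone. For col-73 the DMSO libraries held 0.101 and 0.0689 CPM, from 6 and 2 counts, and the rotenone libraries 0.972 and 1.504 CPM, from 69 and 54 counts. Its log2 change was 3.69 ± 0.50 (SE; edgeR adjusted p = 0.00412), and both rotenone libraries were far above DMSO. Without DMSO replicate 1 the adjusted p of col-73 was 0.546. For col-17 the levels were 0.336 and 0.0689 CPM in DMSO and 2.49 and 1.81 CPM in rotenone, a log2 change of 3.17 ± 0.57 (SE; edgeR adjusted p = 0.0421). The col-17 call was lost when any of the 4 libraries was left out, with adjusted p from 0.0741 to 0.74. Collagen genes have similar coding sequences, so reads may be split between family members.

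The collagen col-125 (IV, 11225506 to 11226516) had nearly equal replicates, 0.369 and 0.414 CPM in DMSO and 2.27 and 2.28 CPM in rotenone. Its log2 change was 2.55 ± 0.42 (SE; edgeR adjusted p = 0.0178). It overlaps the gene best-7, and the library kit does not mark the strand, so reads of the overlap cannot be assigned to 1 of them. Without DMSO replicate 1, rotenone replicate 1 or rotenone replicate 2 its adjusted p was 0.881, 0.135 and 0.0741.

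Opposite in direction was col-81 (II, 11012397 to 11013820), 4.58-fold lower in rotenone. The DMSO libraries held 7.80 and 2.41 CPM and the rotenone libraries 0.831 and 1.62 CPM, so that the groups did not overlap but the DMSO libraries differed widely from each other. The log2 change was -2.20 ± 0.39 (SE; edgeR adjusted p = 0.0417). It was -1.07 without DMSO replicate 1, with an adjusted p of 1, and -2.75 without DMSO replicate 2, with an adjusted p of 0.00085. Without rotenone replicate 1 or rotenone replicate 2 the adjusted p was 0.773 and 0.0741, and with the replicate number as a term it was 0.0831, or 0.0734 with a term per day.

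**Figure D2:**
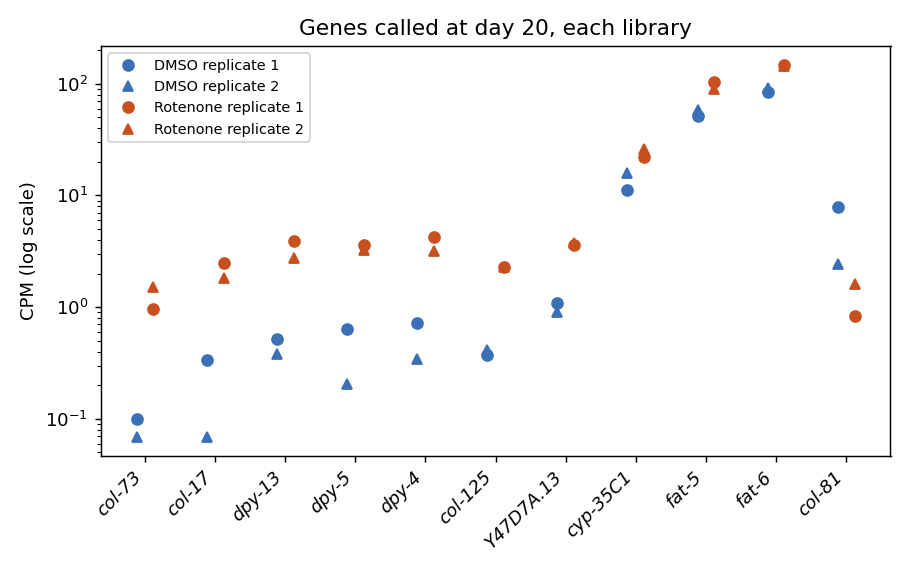
CPM (log scale) of the 11 called genes in each of the 4 day 20 libraries, with colour for treatment and symbol for replicate. In 10 genes both rotenone points lie above both DMSO points, and in col-81 both lie below, with 7.80 and 2.41 CPM in DMSO.

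Beyond the calls, the collagen family as a whole was spread in both directions. Of 180 collagens present, 156 were tested and 6 were called higher and 1 lower, against 0.0594% and 0.00594% of all tested genes. At an unadjusted p under 0.05, 36 collagens were higher and 10 lower, against 426 and 373 of all 16822 tested genes. DESeq2 called 14 collagens higher and 4 lower, and the collagens that edgeR called changed when 1 library was left out. In 54 of the 156 (34.6%) both rotenone libraries lay above both DMSO libraries, against 18.6% of all tested genes. In 20 (12.8%) both lay below, against 15.6%. The median log2 change was 0.18, against 0.02 over all tested genes, and it was 0.35 without DMSO replicate 1 and 0.07 without rotenone replicate 2. The summed level of the family overlapped between the groups, at 815.9 and 669.5 CPM in DMSO and 746 and 774.3 CPM in rotenone.

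The other body-shape collagens did not pass in edgeR and differed in direction, while DESeq2 called rol-6 and rol-8. The following were named after their values were seen. For rol-6, a collagen whose mutation makes worms roll, DMSO held 0.352 and 0.138 CPM and rotenone 1.92 and 0.975 CPM (log2 change 2.44, edgeR adjusted p = 0.171). For sqt-1, another cuticle collagen of body shape, the values were 0.822 and 0.172 CPM and 2.42 and 1.95 CPM (log2 change 1.93, adjusted p = 0.433). The log2 changes of rol-8 and sqt-2 were 2.05 and 1.60 (adjusted p = 0.186 and 0.347), each smaller than those of the 6 called higher. Those of lon-3 and bli-6 were 0.91 and 1.63, and those of sqt-3, dpy-14, dpy-17, bli-1 and bli-2 were -0.03, -0.31, -0.32, -0.24 and -0.64 (adjusted p = 1 for each).

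Closest to the threshold in edgeR were the collagens col-90 and col-139, both of which DESeq2 called. For col-90, DMSO held 0.218 and 0.207 CPM and rotenone 1.94 and 2.17 CPM (log2 change 3.24, edgeR adjusted p = 0.0637). For col-139, DMSO held 10.3 and 3.96 CPM and rotenone 0.972 and 2.37 CPM (log2 change -2.22, edgeR adjusted p = 0.0884). Of the annular furrow collagens dpy-2, dpy-3, dpy-7, dpy-8, dpy-9 and dpy-10, 0 of 6 were called in edgeR or had an unadjusted p under 0.05. Of all 156 tested collagens, 6 were called higher and 1 lower, and 36 and 10 had an unadjusted p under 0.05. With 6 genes, a count of 0 does not set the furrow collagens apart. Their log2 changes ran from -0.14 to 0.60. For the adult-specific collagen col-19, DMSO held 16.8 and 15.3 CPM and rotenone 10.4 and 13.7 CPM (log2 change -0.42, adjusted p = 0.841).

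Non-collagen genes of the cuticle and of moulting were measured beside the collagens. Of 57 tested, 0 were called in edgeR, and the median log2 change was -0.05. At an unadjusted p under 0.05, 2 were higher and 4 lower, against 426 and 373 of all 16822 tested genes. The cuticlin gene cut-2, which encodes an insoluble cuticle component, held 0.755 and 0.345 CPM in DMSO and 3.27 and 1.70 CPM in rotenone (log2 change 2.09, adjusted p = 0.433). The moulting gene mlt-10 held 22.9 and 15.3 CPM in DMSO and 14.6 and 11.7 CPM in rotenone (log2 change -0.54, adjusted p = 0.748). Hypodermis markers, a list that shares collagens with the family, summed to 293.9 and 291.9 CPM in DMSO and 296 and 307.5 CPM in rotenone, and their part in the collagen result was not tested. In 6 of these 12 markers (50%) both rotenone libraries lay above DMSO, against 18.6% of all tested genes. In 2 (16.7%) both lay below, against 15.6%. At an unadjusted p under 0.05, 4 were higher and 1 lower, and the log2 changes ran from -0.42 for col-19 to 2.44 for rol-6. The hypodermal transcription factor genes lin-26 and elt-3 had log2 changes of 0.05 and 0.07.

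Levels over age differed between the collagens. In DMSO, dpy-13 averaged 29.7 ± 0.71, 17.9 ± 3.4 and 0.389 ± 0.16 CPM (SD, n = 3 each) at days 1, 5 and 10, and 0.450 ± 0.10 CPM (n = 2) at day 20. In rotenone the mean was 0.544 ± 0.28 CPM (n = 3) at day 10, and by day 20 it was 3.32 ± 0.80 CPM (n = 2). The same shape was seen for dpy-4, dpy-5, col-17, col-73 and col-125, whose rotenone means at day 20 lay above those at day 10 and below those at days 1 and 5, while the DMSO means at both late ages stayed under 0.6 CPM. By contrast col-81 averaged 340.8 ± 17, 4.68 ± 0.26 and 1.06 ± 0.37 CPM (SD, n = 3 each) in DMSO at days 1, 5 and 10, against 5.11 ± 3.8 CPM (n = 2) at day 20.

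**Figure D3:**
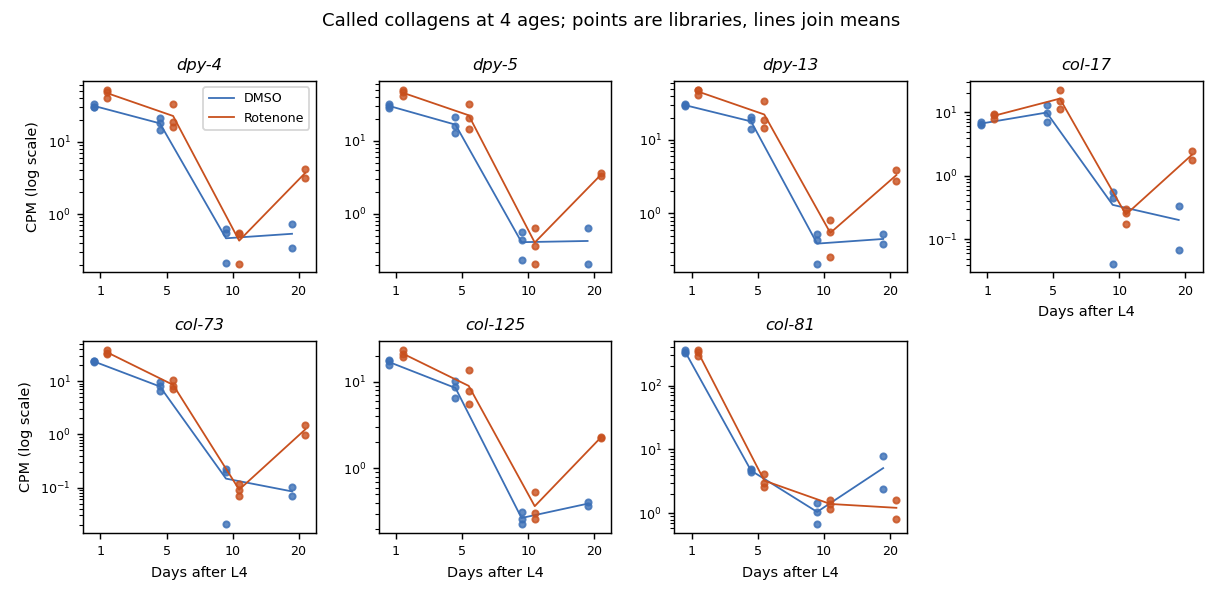
CPM (log scale) of the 7 called collagens at days 1, 5, 10 and 20 after L4 (evenly spaced), with 1 point per library and lines through the group means. In 6 panels DMSO stays low between days 10 and 20 while the day 20 rotenone points lie higher, for dpy-13 at 3.89 and 2.76 CPM, and for col-81 the day 20 DMSO points lie higher.

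Of the 10 genes called higher at day 20, 9 were lower in DMSO at day 10 than at day 1 (edgeR adjusted p under 0.05), as were 29.6% of all tested genes and 127 of the 156 collagens. Their log2 changes from day 1 to day 10 ran from -7.30 for col-73 to -0.28 for fat-6, and fat-5 was the exception at 0.31. The collagens were then split into 3 classes of 52 by their change from day 1 to day 5 in DMSO, a split chosen after the data were seen that uses no day 20 library. In the class with the strongest fall (median -3.38) both rotenone libraries at day 20 lay above DMSO in 6 collagens and below in 11. In the middle class (median -1.56) the counts were 22 above and 5 below, and in the class with the least fall (median 0.15) 26 above and 4 below. Of all tested genes 18.6% lay above and 15.6% below, so that the counts of the first class are near those shares.

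The classes also differed in level, with medians of 23.2, 7.03 and 1.88 CPM in DMSO at day 1. Over the 156 collagens the Spearman correlation between the DMSO change from day 1 to day 5 and the rotenone change at day 20 was 0.308, against 0.0657 over all 16822 genes. The points of each correlation share the same 10 libraries, and genes are not independent replicates, so this is a description.

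**Figure D4:**
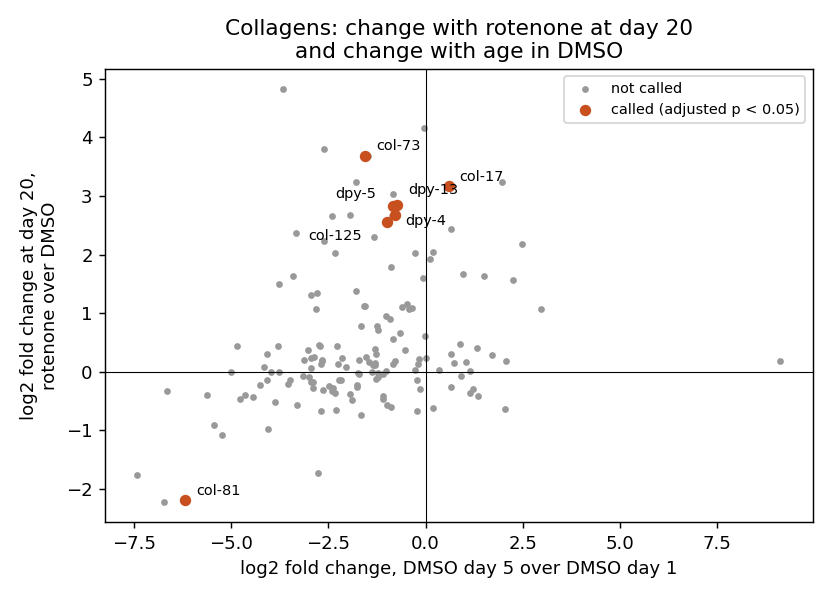
Log2 fold change of rotenone over DMSO at day 20 (vertical axis) against the log2 change from day 1 to day 5 in DMSO (horizontal axis), 1 point per tested collagen. The called collagens with positive day 20 changes lie between -1.56 and 0.59 on the horizontal axis, and col-81 lies at -6.19.

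The desaturases fat-5 and fat-6 were 1.78-fold and 1.66-fold higher in rotenone. For fat-6 (IV, 11913692 to 11915687), a stearoyl-CoA desaturase that makes oleic acid, DMSO held 84.6 and 91.5 CPM and rotenone 148.5 and 144 CPM. The replicates lay close together and the groups were well apart, with a log2 change of 0.73 ± 0.10 (SE; edgeR adjusted p = 0.00412). The gene also passed without DMSO replicate 2, rotenone replicate 1 or rotenone replicate 2, but without DMSO replicate 1 the adjusted p was 0.51 at a log2 change of 0.66.

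For fat-5 (V, 17725004 to 17726818), a palmitoyl-CoA desaturase, the levels were 51.7 and 57.6 CPM in DMSO and 104.2 and 89.9 CPM in rotenone. The log2 change was 0.83 ± 0.14 (SE; edgeR adjusted p = 0.0197), and of the 4 fits without 1 library it passed in that without DMSO replicate 2, with adjusted p of 0.824, 0.26 and 0.0649 without DMSO replicate 1, rotenone replicate 1 and rotenone replicate 2. The remaining delta-9 desaturase, fat-7, is listed at 0 counts in all 22 libraries. It is a near-identical copy of fat-6, so the fat-6 value may hold reads of both, and fat-5 overlaps the gene twk-42.

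Among the 15 tested desaturases and elongases, the enzymes that build long and polyunsaturated fatty acids, fat-5 and fat-6 were the 2 called higher, and 0 were called lower. In 6 (40%) both rotenone libraries lay above both DMSO libraries, against 18.6% of all tested genes, and in 3 (20%) below, against 15.6%. The median log2 change was 0.11, or 0.07 without DMSO replicate 1 and 0.26 without DMSO replicate 2. Named after their values were seen, the delta-12 desaturase fat-2 held 378.1 and 477.8 CPM in DMSO and 552.5 and 534.8 CPM in rotenone (log2 change 0.35, edgeR adjusted p = 0.883). The elongase elo-5, which makes branched-chain fatty acids, held 7.12 and 9.89 CPM and 11.4 and 12.3 CPM (log2 change 0.49, adjusted p = 0.433). The later enzymes fat-1, fat-3 and fat-4 had log2 changes of 0.16, 0.07 and 0.11.

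The levels of 2 genes known to regulate the delta-9 desaturases did not pass. The nuclear receptor gene nhr-80 held 4.38 and 3.96 CPM in DMSO and 5.45 and 5.82 CPM in rotenone. Both rotenone libraries thus lay above both DMSO libraries, as in 18.6% of all tested genes. For nhr-49, a nuclear receptor gene of fasting and lipid metabolism, the levels were 168.6 and 179.8 CPM in DMSO and 168.8 and 174.5 CPM in rotenone, so the groups overlapped. Of 73 genes of fatty acid activation and oxidation 0 were called in edgeR. At an unadjusted p under 0.05, 5 were higher and 0 lower, against 426 and 373 of all 16822 tested genes. The median log2 change of the 73 was 0.12, or -0.04 without DMSO replicate 1. The acyl-CoA synthetase gene acs-2, named after its values were seen, held 131.6 and 170 CPM in DMSO and 214.8 and 214.2 CPM in rotenone (log2 change 0.51, adjusted p = 0.363).

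The cytochrome P450 gene cyp-35C1 (V, 13896663 to 13898487), of a family that responds to foreign compounds, was 1.80-fold higher. DMSO held 11.1 and 15.9 CPM and rotenone 22.3 and 25.99 CPM, a log2 change of 0.84 ± 0.15 (SE; edgeR adjusted p = 0.0284). It was 0.59 without DMSO replicate 1 (adjusted p = 0.836) and 1.11 without DMSO replicate 2 (adjusted p = 0.00562), and the adjusted p was 0.0929 and 0.306 without rotenone replicates 1 and 2. It was the only one of 75 tested cytochrome P450 genes called, and their median log2 change was 0.08, or -0.09 without DMSO replicate 1. Of the other enzymes of foreign compound metabolism, 0 of 49 glutathione S-transferases, 0 of 66 UDP-glucuronosyltransferases and 0 of 31 ABC exporters were called in edgeR. At an unadjusted p under 0.05, 5, 1 and 0 were higher and 0, 0 and 1 lower. Of all 16822 tested genes 11 were called, and 426 were higher and 373 lower unadjusted. Both rotenone libraries lay above DMSO in 34.7%, 12.1% and 12.9% of the 3 families, against 18.6% of all tested genes. Both lay below in 12.2%, 10.6% and 19.4%, against 15.6%.

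Y47D7A.13 (V, 4434992 to 4435927) held 1.09 and 0.896 CPM in DMSO and 3.59 and 3.76 CPM in rotenone, a log2 change of 1.85 ± 0.34 (SE; edgeR adjusted p = 0.0437). Its replicates lay close together, but the call was lost without any one of the 4 libraries, with adjusted p from 0.0838 to 0.836. Like the collagens it stood higher in young adults, with DMSO means of 14.5 ± 1.3 CPM at day 1, against 0.776 ± 0.044 CPM by day 10 (SD, n = 3 each).

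**Figure D5:**
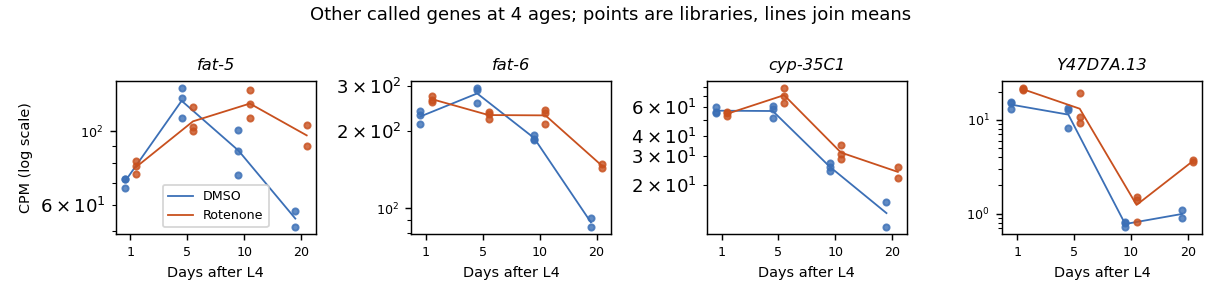
CPM (log scale) of fat-5, fat-6, cyp-35C1 and Y47D7A.13 at days 1, 5, 10 and 20 after L4 (evenly spaced), with 1 point per library and lines through the group means. At day 20 the rotenone points of all 4 genes lie above the DMSO points, for fat-6 at 148.5 and 144 CPM against 84.6 and 91.5 CPM.

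The day 20 effect was set against the mean rotenone effect at days 1, 5 and 10, whose libraries it does not share. In this interaction contrast 1 gene passed, 0.00594% of those tested: col-73, with a difference of 3.68 ± 0.55 (log2, SE; edgeR adjusted p = 0.0383). It did not pass without DMSO replicate 1 or rotenone replicate 2 of day 20, and without DMSO replicate 2 the count of genes was 108. The adjusted p of the other 10 called genes ran from 0.0508 for fat-6 to 0.629 for Y47D7A.13. For col-73 the rotenone changes were 0.57 at day 1, 0.11 at day 5, -0.64 at day 10 and 3.69 at day 20. For fat-6 they were 0.23, -0.28, 0.29 and 0.73, and for fat-5 0.15, -0.20, 0.47 and 0.83.

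For dpy-13 the changes at the 4 ages were 0.61, 0.32, 0.53 and 2.84. Of the 11 called genes, 10 had the same direction at day 1 as at day 20, 9 at day 5 and 7 at day 10. Of all tested genes, 43.7%, 47.6% and 55.1% had the direction of their day 20 change at those ages.

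Genes of the drug's target did not pass at day 20. The complex I subunit gene gas-1 held 54.7 and 58.0 CPM in DMSO and 62.2 and 60.1 CPM in rotenone, a log2 change of 0.12 ± 0.12 (SE; edgeR adjusted p = 1). Of 36 tested nuclear genes of complex I and its assembly 0 were called in edgeR, 0 had an unadjusted p under 0.05, and in 13 (36.1%) both rotenone libraries lay above DMSO, against 18.6% of all tested genes, and in 1 below, against 15.6%. The median was 0.06 for complex I and 0.08 for 41 genes of complexes II to V. Without DMSO replicate 2 it was 0.02 for each, and without DMSO replicate 1 it was 0.095 and 0.133. For the 8 tested messenger RNAs of the mitochondrial genome all log2 changes were below 0, from -0.53 to -0.13, and 5 (62.5%) had both rotenone libraries below both DMSO libraries, against 15.6% of all tested genes. Their median was -0.22, or -0.12 without DMSO replicate 2 and -0.30 without DMSO replicate 1. Of these 0 were called and 0 had an unadjusted p under 0.05.

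Single genes of stress pathways were followed in every library. The mitochondrial chaperone gene hsp-6, a reporter of the mitochondrial unfolded protein response, held 558.4 and 779.3 CPM in DMSO and 839 and 878.7 CPM in rotenone (log2 change 0.36 ± 0.26, SE; edgeR adjusted p = 1). Its partner chaperonin gene hsp-60 held 140.9 and 181.5 CPM and 216.9 and 230.6 CPM (log2 change 0.47 ± 0.22, SE; adjusted p = 1), and it passed in 1 of 14 alternatives. In both genes the groups did not overlap and DMSO replicate 1 was the lowest library. Of the 16 tested genes of this response 5 (31.2%) had both rotenone libraries above DMSO, against 18.6% of all tested genes, and 0 below, against 15.6%. Their median was 0.12, or 0.03 without DMSO replicate 2 and 0.11 without DMSO replicate 1.

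The detoxification gene gst-4 held 5.09 and 8.17 CPM in DMSO and 7.65 and 8.30 CPM in rotenone, and the superoxide dismutase gene sod-3 held 2.59 and 2.90 CPM and 2.61 and 2.84 CPM. In both genes the groups overlapped (log2 changes of 0.29 and -0.0046, edgeR adjusted p = 1), and the direction depended on the setting. The transcription factor genes skn-1, daf-16 and hif-1, which govern oxidative stress, insulin signalling and hypoxia responses, had log2 changes of 0.02, -0.02 and 0.06 (adjusted p = 1), with signs that also depended on the setting. All of these except hsp-6, hsp-60 and hif-1 overlap another gene in the annotation. Of 14 genes of dopamine neurons 0 were called in edgeR and 1, dop-3, had an unadjusted p under 0.05, against 799 of all 16822 tested genes. Both rotenone libraries lay below DMSO in 6 of the 14 (42.9%), against 15.6% of all tested genes. Both lay above in 2 (14.3%), against 18.6%. The median of the 14 was -0.27, or -0.02 without DMSO replicate 1. The dopamine transporter gene dat-1 held 0.789 and 0.862 CPM in DMSO and 0.662 and 0.529 CPM in rotenone (log2 change -0.42, adjusted p = 1).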

How the data were processed

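Messenger RNA of whole worms was sequenced in 22 libraries made from 2 μg of total RNA each with a TruSeq kit, per the labels' protocols. The authors deposited counts of reads per gene without normalization. TopHat 1.4.1, HTSeq and genome build WBcel235 are named in the submitters' processing notes, without their roles, and the annotation used for counting is not given in the sources used here. A deposited RPKM table was not used. Of 45461 genes, 28814 had a count and 44080 matched RefSeq genes of the same build, which gave coordinates and current names.

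Genes were kept by filterByExpr (16822), libraries scaled by TMM, and group differences in the counts assessed by edgeR 4.0.16 (quasi-likelihood F test; limma 3.58.1, R 4.3.3) in 1 fit of all 8 groups, with Benjamini-Hochberg adjustment. The spread between replicates, as edgeR's common biological coefficient of variation, came to 0.135. The SE of a log2 change is its size divided by the root of F. CPM divide a gene's count by the library's total over tested genes times the TMM factor, per 1e6. Totals ran from 25769159 to 69961601 per library, and a level from a few counts is imprecise. The procedure was run on simulated counts drawn with means and spread taken from the same fit. Such a run cannot show whether a spread estimated over all 8 groups suits the day 20 groups of 2 libraries. With 2 against 2 libraries a permutation test of a single gene cannot go below p = 0.333 and was not used.

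Genes were named by rule: up to 12 per direction with the largest change, out of called genes whose mean count over the 4 libraries reached 20 and whose groups stood apart, the 2 lowest-p members of any list with 3 or more calls, up to 4 per direction of the interaction, and 8 single genes. Other named genes were chosen after their values were seen. The comparison, the 46 gene lists and the rule were chosen with earlier results of these data known. Lists are described by counts and medians without a test of their own.

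Alternatives were RLE size factors, no count filter, a mean of at least 50 counts, DESeq2 1.42.0, only the 4 day 20 libraries, DMSO day 10 replicate 1 left out, the replicate number as a term (once and per day), a trend on exonic length removed (lowess span 0.3) with and without that term, and each day 20 library left out, where the lone library was assumed to vary like the other groups. Promoter motifs and sequences were not analysed here.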

Additional observations from a re-analysis of the deposited data

Results flagged for a closer look

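The collagen gene col-73 differed between ages in its response to rotenone. The log2 change at day 20 exceeded the mean change at days 1, 5 and 10 by 3.68 ± 0.55 (SE; edgeR adjusted p = 0.0383 for the difference). The rotenone libraries averaged 34.9 ± 3.4, 8.53 ± 1.7 and 0.0916 ± 0.024 CPM (SD, n = 3 each) at days 1, 5 and 10, and 1.24 ± 0.38 CPM (n = 2) at day 20. The DMSO libraries averaged 23.5 ± 0.70, 7.95 ± 1.5 and 0.148 ± 0.11 CPM at the first 3 ages, and 0.0848 ± 0.022 CPM at day 20. The difference rests on 6 and 2 counts in the day 20 DMSO libraries. It did not pass with the replicate number as a term (edgeR adjusted p = 0.0694, or 0.115 with a term per day), with a mean of at least 50 counts (0.117), without DMSO day 10 replicate 1 (0.0522), or without DMSO replicate 1 (0.83) or rotenone replicate 2 (0.206) of day 20. It passed under the other 7 alternatives.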

How the results depend on the processing

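Against 11 genes called at day 20, no filter gave 64, only the 4 day 20 libraries 4, and DESeq2 37. Leaving out 1 library gave 0 to 83. Against 6 collagens called higher, the counts were 26, 3 and 14 under the same settings and 0 to 5 without 1 library. Against 1 gene in the interaction, no filter gave 226, a mean of 50 counts 0 (484 at an unadjusted p under 0.05), DMSO day 10 replicate 1 left out 2, the length trend removed 2, DESeq2 17, and leaving out 1 library 0 to 108. The fit of only day 20 gives no interaction. At day 20 the correlation of deviations between libraries of the same replicate number was 0.0996 over 16822 genes, and the labels name no shared source, so the numbers were not taken to pair the samples. With a replicate block edgeR called 10 genes at day 20, the 11 without col-81, and 0 in the interaction (1088 at an unadjusted p under 0.05). With a replicate block per day it called 20 genes, 10 collagens higher, and 0 in the interaction (1988). With the length trend removed as well, it called 30, 11 and 15. The 9464 genes that changed in DMSO from day 1 to day 10 stayed within 1.5 times of that count under each alternative run. Signs turned in 5 genes that were not called. Without DMSO replicate 1, gst-4 was -0.050 (without 1 library -0.050 to 0.646) and hif-1 -0.038 (-0.038 to 0.148). For sod-3 no filter gave 0.014, the length trend removed 0.034, with the replicate block per day 0.035, and leaving out 1 library -0.108 to 0.069. For skn-1 RLE gave -0.003, a mean of 50 counts -0.021, only day 20 -0.005, the length trend -0.027, with the block -0.025, DESeq2 -0.002, and leaving out 1 library -0.003 to 0.022. For daf-16 no filter gave 0.004, and leaving out 1 library -0.053 to 0.020. The cause was not tested. The low depth of DMSO replicate 2, 25769159 counts, limits what can be seen in collagens at under 1 CPM, which 102 of 156 were in both DMSO libraries.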

Other observations

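Further gene groups showed small shifts without a called member in edgeR at day 20; DESeq2 called pho-1 and asp-3 among them. Both rotenone libraries lay above both DMSO libraries in 24 of 38 germline genes, 17 of 33 oocyte and eggshell genes, 10 of 18 intestine markers, 22 of 33 proteasome genes and 28 of 44 genes of glycolysis and the TCA cycle, against 18.6% of all tested genes. Their median log2 changes were 0.16, 0.12, 0.16, 0.11 and 0.15. Without DMSO replicate 1 the medians of germline genes, intestine markers and glycolysis and TCA cycle genes were 0.10, 0.06 and 0.09, and without DMSO replicate 2 that of intestine markers was 0.25. At an unadjusted p under 0.05 they held 0, 1, 2, 0 and 3 higher genes and 0 lower ones, against 426 and 373 of all 16822. The summed level of intestine markers was 976.7 and 1099 CPM in DMSO and 1187 and 1119 CPM in rotenone. That of germline genes was 8411 and 9295 CPM in DMSO and 10110 and 9853 CPM in rotenone. The sum over all tested genes was also higher in rotenone, at 927100 and 921400 CPM against 855600 and 887700 CPM in DMSO. That sum is fixed by the TMM factors and is not a measured difference, and the list sums carry the same scaling. The part of intestine and germline genes in the results for fat-5, fat-6 and cyp-35C1 was not tested.

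Of 24 cathepsins and aspartyl proteases, lysosomal and digestive enzymes, 7 were higher and 0 lower at an unadjusted p under 0.05. Of all 16822 tested genes, 426 were higher and 373 lower at that threshold. Both rotenone libraries lay above DMSO in 13 of the 24 (54.2%), against 18.6% of all tested genes. Both lay below in 1 (4.17%), against 15.6%. The median of the 24 was 0.23 (0.06 without DMSO replicate 1 and 0.43 without DMSO replicate 2). The aspartyl protease gene asp-3 held 88.0 and 98.5 CPM in DMSO and 123.6 and 124.3 CPM in rotenone (log2 change 0.41, edgeR adjusted p = 0.476). Of 13 lysozymes 4 were higher and 0 lower at an unadjusted p under 0.05, with a median of 0.30. Both rotenone libraries lay above DMSO in 8 of the 13 (61.5%) and below in 1 (7.69%). The lysozyme gene lys-1 held 21.9 and 26.98 CPM in DMSO and 31.01 and 34.1 CPM in rotenone (log2 change 0.42, edgeR adjusted p = 0.64). The intestinal acid phosphatase gene pho-1 came close to the threshold, with 1.53 and 1.48 CPM in DMSO and 2.79 and 2.34 CPM in rotenone (log2 change 0.78, adjusted p = 0.0962).

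Yolk protein genes differed more between the DMSO replicates than between the treatments. The 6 vitellogenins summed to 5206 and 9637 CPM in DMSO and 9196 and 9716 CPM in rotenone, 0 of 6 had groups that did not overlap, and the median log2 change was 0.35, -0.04 without DMSO replicate 1 and 0.81 without DMSO replicate 2.

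Large families with medians below 0 were the F-box genes, which encode adaptors of ubiquitin ligases, the chemoreceptors and the nuclear hormone receptors. Both rotenone libraries lay below DMSO in 106 of 333 F-box genes, 64 of 251 chemoreceptors and 55 of 219 nuclear hormone receptors, against 15.6% of all tested genes, and the medians were -0.14, -0.24 and -0.03. The chemoreceptor median was -0.11 without DMSO replicate 1 and -0.01 with a mean of at least 50 counts. At an unadjusted p under 0.05, 27 F-box genes, 11 chemoreceptors and 6 nuclear hormone receptors were lower and 0, 0 and 2 higher. Of all 16822 tested genes, 373 were lower and 426 higher at that threshold. In these families 0 were called in edgeR, as were 11 of all tested genes.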
